A study of Mus musculus with 18 samples.

Results

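The genes described here are the receptors and signal carriers of TGFb: the receptors Tgfbr1 and Tgfbr2, the co-receptors Tgfbr3 and Eng, and the transcription factors Smad2, Smad3 and Smad4. They were chosen by name, and every probe set annotated to one of these 7 genes was taken, which gave 18 of the 45037 probe sets on the array that are not controls. A probe set is a group of short array probes that together give 1 value for a transcript. RNA came from mouse embryonic fibroblasts, cells grown out of trypsin-treated fetuses of embryonic day 12.5 to 14.5 whose head, liver and blood clots had been removed. They were cultured in DMEM with 10% serum and measured on 18 arrays, 2 in each of 9 groups.

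Homozygous mutant, heterozygous mutant and wt cells were each measured untreated, after 4 h of TGFb1 at 5 ng/mL and after 24 h of the same dose. The series title speaks of a point mutation in TGFBR1, whereas its design text calls the animals TGFb1 mutants and the mutant constitutively active, so the cells are called only mutant here. The design text speaks of vehicle for the controls, and the samples are labelled untreated. The sources used here do not give the strain, the number of embryos or cell lines behind a group, or whether animals were pooled. Whether arrays of one group stem from different embryos or cultures is likewise not stated, so p-values measure the spread between these arrays. In heterozygous groups that spread may be technical. Each wt and homozygous pair joined an array high in Xist, an RNA abundant in female cells, with a low one. The arrays of those pairs were therefore not repeats of the same material.

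TGFb is a secreted dimer that binds the kinase receptor TGFBR2, which then recruits and phosphorylates TGFBR1. TGFBR1 phosphorylates SMAD2 and SMAD3, which join SMAD4, enter the nucleus and change transcription. Betaglycan, encoded by Tgfbr3, presents ligand to TGFBR2, and endoglin, encoded by Eng, is a related co-receptor best known from endothelial cells. In fibroblasts the pathway is known for raising genes of the extracellular matrix, and its own receptors and Smads are held in check by inhibitors that TGFb induces.

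All levels are log2 of the deposited GCRMA intensity, and an adjusted p, unless another setting is named beside it, is from limma's moderated test with Benjamini-Hochberg adjustment over the 18958 probe sets that reached a log2 of 5 in at least 2 arrays. A probe set is called when that p is under 0.05. Each error after a log2 difference is the standard error of a fit that pools the spread over all 9 groups. Of the 18 probe sets 15 passed the filter, at least 1 for each gene. Those that did not pass were 1422019_at of Tgfbr2 at 2.81 to 2.97, 1425620_at of Tgfbr3 at 1.95 to 2.01 and 1450471_at of Smad3 at 2.89 to 4.59. Levels of different probe sets depend on their probes, so they are not set against each other.

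The genes lie on 5 chromosomes of GRCm38.p6: Tgfbr1 at chr4:47353222-47414926, Tgfbr2 at chr9:116087695-116175363, Tgfbr3 at chr5:107106567-107289629, Eng at chr2:32646595-32682669, Smad3 at chr9:63646766-63757994, Smad2 at chr18:76241090-76311748 and Smad4 at chr18:73634790-73703791. The genome build behind the array's probes is not given in the sources used here, and coordinates are those of the RefSeq gene table.

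The arrays were even in signal, with 39.5 to 40.3% of probe sets at or above log2 5. The cells carried the fibroblast markers fixed for them: 11 or 12 of 12 lay above that level in each array, with Col1a1, a collagen chain, at 14.64 to 15.63. Macrophage and blood markers were present as well, and their summed level was 12.89 to 13.80 in homozygous, 13.44 to 14.39 in heterozygous and 9.82 to 12.72 in wt arrays. The pairs of wt arrays differed more from each other than the mutant pairs, with a root mean square SD of 0.34 to 0.41 in wt and 0.20 to 0.28 in mutant groups. RNA is from bulk cultures, where fewer cells of a type and less RNA per cell cannot be told apart.

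RefSeq promoter sequences were searched for 4 of the 7 genes, Tgfbr1, Tgfbr2, Smad3 and Eng. Those of Smad2 and Smad4 were left out of the search, and none was matched for Tgfbr3. Those of Tgfbr1, Tgfbr2 and Smad3 are shown because Tgfbr1 moved up and the other two moved down in the same cells at 4 h. Each is the 250 bases before the first base of the gene, 5′ to 3′ on the gene's strand, with matches to a GC box (GGGCGG) or a Smad half-site (CAGAC) in capitals.
Tgfbr1, chr4:47352972-47353221, plus strand: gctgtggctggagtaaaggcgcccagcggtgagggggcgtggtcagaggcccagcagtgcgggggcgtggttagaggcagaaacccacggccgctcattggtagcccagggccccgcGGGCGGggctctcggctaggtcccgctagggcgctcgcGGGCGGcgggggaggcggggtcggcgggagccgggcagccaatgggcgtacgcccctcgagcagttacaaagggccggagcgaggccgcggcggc
Tgfbr2, chr9:116175364-116175613, minus strand: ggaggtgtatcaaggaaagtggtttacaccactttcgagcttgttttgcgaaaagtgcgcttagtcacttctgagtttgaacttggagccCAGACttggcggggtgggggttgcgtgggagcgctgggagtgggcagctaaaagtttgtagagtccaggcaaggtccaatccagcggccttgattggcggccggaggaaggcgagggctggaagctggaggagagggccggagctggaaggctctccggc
Smad3, chr9:63757995-63758244, minus strand: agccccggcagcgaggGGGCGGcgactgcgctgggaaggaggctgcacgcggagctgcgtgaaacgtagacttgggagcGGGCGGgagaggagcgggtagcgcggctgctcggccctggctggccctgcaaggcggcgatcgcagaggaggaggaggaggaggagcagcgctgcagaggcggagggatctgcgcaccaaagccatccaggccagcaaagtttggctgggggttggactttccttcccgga

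Motifs were searched on both strands in windows of 300 bases that also take in the first 50 bases of each gene. The Tgfbr1 window, at 74.7% G or C, held GC boxes 133 and 95 bases before the gene, and the Smad3 window, at 67.7%, held them 234 and 171 bases before it. RefSeq also gives Tgfbr1 a second window inside the gene, chr4:47385966-47386265, at 52% G or C, with a CAGAC 203 bases before its start and no GC box. Which start is used in these cells was not tested. In the Tgfbr2 window, at 59% G or C, the single match was a CAGAC 160 bases before the gene. The Eng window, at 63.3% G or C, held a CAGAC 214 bases before the gene and, on the opposite strand, another 127 bases before it. It held no GC box, and Eng had no call in any treatment comparison. A GC box stood in 35.7% of 32851 promoter windows of this length and a CAGAC in 49.6%, and the median G or C content was 52.7%. None of these windows matched the palindromic Smad element GTCTAGAC, found in 0.213% of windows, the AP-1 site TGANTCA in 7.81%, TATAAA in 13.6% or the E-box CACGTG in 7.15%. A match here is a description of letters, and no motif overlapped another.

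After 4 h of TGFb, members of the pathway moved in opposite directions in all 3 genotypes. Tgfbr1 rose by its brightest probe set, while Tgfbr2, Tgfbr3 and Smad3 fell, and no call was made for Eng or Smad2. Of the 15 probe sets, 1 was called higher and 7 lower in homozygous cells, 1 higher and 6 lower in heterozygous cells, and 1 higher and 3 lower in wt cells. Over all probe sets 35% were called in homozygous, 26.5% in heterozygous and 17.1% in wt cells, with 17.4, 13.8 and 7.64% called higher and 17.6, 12.7 and 9.48% called lower in the same order of genotypes. The median change of the 15 was -0.53 in homozygous, -0.11 in heterozygous and -0.19 in wt cells, and over all probe sets it was -0.0029, 0.0031 and -0.044. The arrays of the 4 h and untreated groups did not overlap for 12 of the 15 in homozygous, 7 in heterozygous and 6 in wt cells, against 78.9, 68.5 and 44.4% of all probe sets. All 4 wt calls at 4 h were lost when arrays were weighted by their quality, with adjusted p of 0.156 to 0.373, and when only the 4 arrays compared were fitted, with 0.191 to 0.492.

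**Figure D1:**
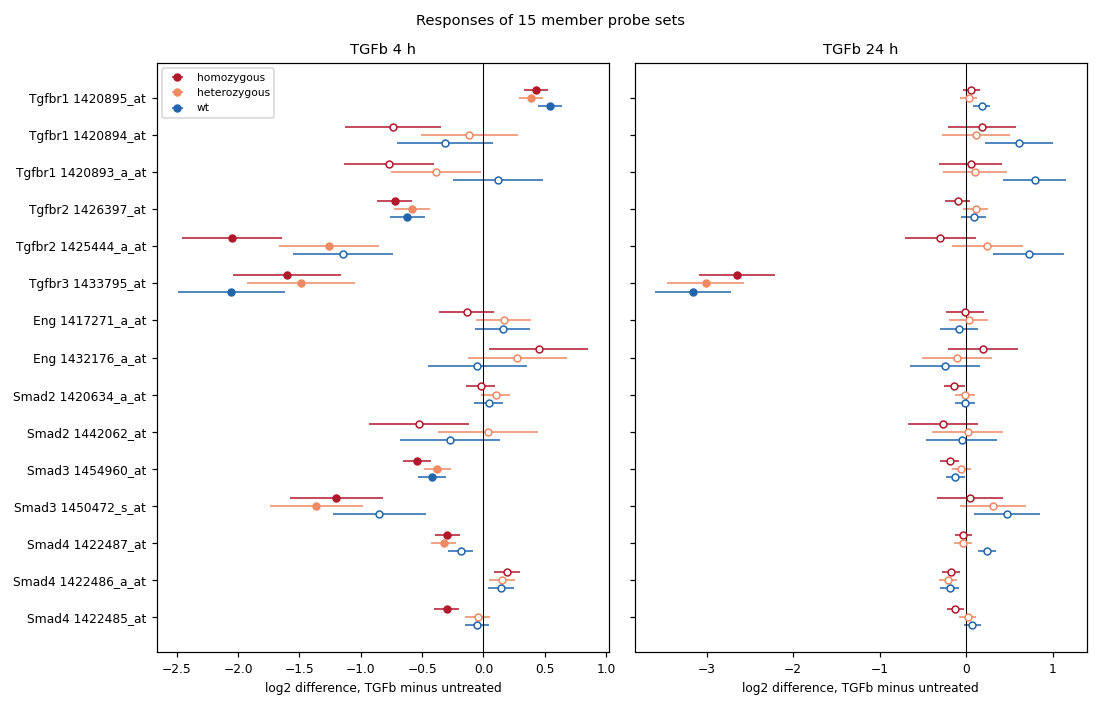
Log2 difference of each of the 15 probe sets between TGFb-treated and untreated cells at 4 h (left) and 24 h (right), with the standard error as bars, filled where the adjusted p was under 0.05 and open where it was not. At 4 h the brightest Tgfbr1 probe set lies right of 0 in all 3 genotypes while Tgfbr2, Tgfbr3 and Smad3 lie left of it, and at 24 h the 3 filled points belong to Tgfbr3.

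Tgfbr1 encodes the type I receptor, the kinase that activates the Smads. Its brightest probe set, 1420895_at, was at 10.49 and 10.39 in untreated homozygous cells, 10.90 and 10.85 after 4 h and 10.55 and 10.45 after 24 h. In heterozygous cells it was at 10.54 and 10.53 untreated, 10.91 and 10.94 after 4 h and 10.62 and 10.51 after 24 h. In wt cells it was at 10.10 and 10.18 untreated, 10.74 and 10.64 after 4 h and 10.46 and 10.18 after 24 h. The 6 arrays at 4 h were the 6 highest of the 18. The rise at 4 h was 0.43 ± 0.10 in homozygous cells (limma, adjusted p = 0.00549), 0.39 ± 0.10 in heterozygous cells (adjusted p = 0.0126) and 0.55 ± 0.10 in wt cells (adjusted p = 0.00348), or 135, 131 and 146% of the untreated level. By 24 h the difference from untreated cells was 0.06 in homozygous, 0.03 in heterozygous and 0.18 in wt cells, and none was called.

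The homozygous call for Tgfbr1 was lost without the second untreated homozygous array, where the rise was 0.38 (adjusted p = 0.0538). The heterozygous call was lost without the second 4 h array (0.38, adjusted p = 0.0570), the first untreated array (0.40, adjusted p = 0.0602) or the second (0.38, adjusted p = 0.0715) of that genotype. Leaving out any 1 of the 18 arrays kept the wt call, with rises of 0.49 to 0.60. When the 3 probe sets of Tgfbr1, the dim one included, were averaged, the 4 h difference was -0.36 in homozygous (limma, adjusted p = 0.230), -0.04 in heterozygous (adjusted p = 0.921) and 0.12 in wt cells (adjusted p = 0.751), and none was called. Ordered by group mean from high to low, the 4 h groups came first: 10.92 ± 0.02 in heterozygous, 10.87 ± 0.03 in homozygous and 10.69 ± 0.07 in wt cells (SD, n = 2 each). Below them came heterozygous cells at 24 h, heterozygous untreated, homozygous at 24 h, homozygous untreated, wt at 24 h and wt untreated cells, the last at 10.14 ± 0.06. Of the 8 neighbouring pairs in this order 3 had arrays that did not overlap, those among the 4 h groups and the pair of wt at 4 h and heterozygous at 24 h.

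The other Tgfbr1 probe sets did not follow the brightest one. Probe set 1420894_at was at 7.20 and 7.23 in untreated homozygous cells, 6.21 and 6.75 at 4 h and 7.49 and 7.31 at 24 h. It was at 7.32 and 7.20 in untreated heterozygous cells, 6.94 and 7.36 at 4 h and 7.50 and 7.25 at 24 h, and in wt cells at 7.26 and 6.06, 6.97 and 5.72, and 7.33 and 7.21. Its 4 h differences of -0.74 ± 0.39 in homozygous (limma, adjusted p = 0.165), -0.11 in heterozygous (adjusted p = 0.868) and -0.31 in wt cells (adjusted p = 0.617) were not called. Probe set 1420893_a_at was dim, at 3.54 to 5.14, and reached log2 5 in 4 arrays. Over the 18 arrays the brightest probe set correlated with 1420894_at at r = -0.13 and with 1420893_a_at at r = -0.10, while those 2 correlated with each other at r = 0.80. The points share arrays, treatment groups and normalization, and r is given as a description.

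Within an array, 1420895_at lay above 1420894_at by 3.29 and 3.16 in untreated homozygous cells, 4.69 and 4.10 at 4 h and 3.06 and 3.14 at 24 h. In heterozygous cells the gap was 3.22 and 3.32 untreated, 3.98 and 3.57 at 4 h and 3.12 and 3.27 at 24 h. In wt cells it was 2.84 and 4.12 untreated, 3.77 and 4.92 at 4 h and 3.13 and 2.97 at 24 h, with the 4 h and untreated arrays overlapping. The change of the gap at 4 h was 1.17 in homozygous, 0.50 in heterozygous and 0.86 in wt cells, a mean of 0.84. The pair was looked at because its members disagreed, so these gaps are given only as a description, and which transcripts each probe set measures was not tested. At 24 h the mean change of the gap was -0.21.

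**Figure D2:**
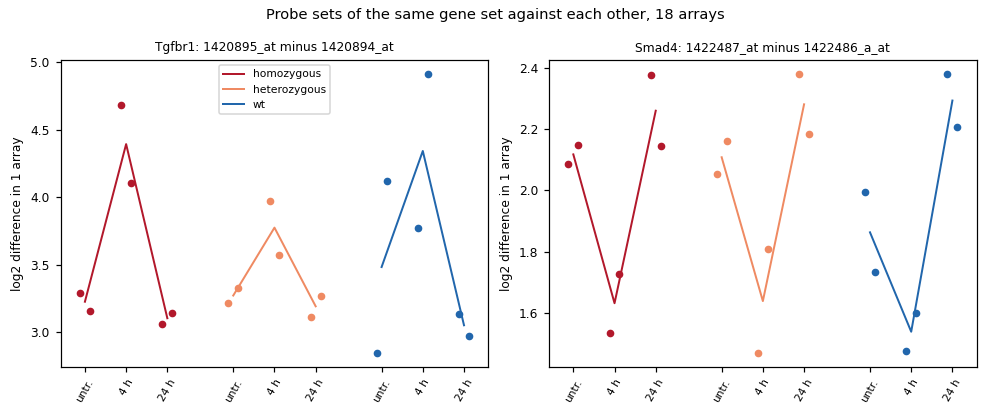
Log2 difference within each array between a pair of probe sets of Tgfbr1 (left) and of Smad4 (right), by genotype and time. Dots are arrays and lines join group means. The Tgfbr1 gap is wider and the Smad4 gap narrower at 4 h than in untreated cells of the same genotype, by mean.

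Tgfbr2 encodes the type II receptor, which binds TGFb first. Its probe set 1426397_at was at 11.85 and 12.08 in untreated homozygous cells, 11.09 and 11.39 after 4 h and 11.83 and 11.91 after 24 h. In heterozygous cells it was at 11.82 and 11.77 untreated, 11.26 and 11.16 after 4 h and 12.14 and 11.66 after 24 h. In wt cells it was at 11.55 and 11.40 untreated, 10.90 and 10.81 after 4 h and 11.51 and 11.62 after 24 h. The 4 h arrays, at 10.81 to 11.39, lay below all untreated arrays, at 11.40 to 12.08, and all 24 h arrays, at 11.51 to 12.14. The fall at 4 h was -0.72 ± 0.15 in homozygous (limma, adjusted p = 0.00266), -0.58 ± 0.15 in heterozygous (adjusted p = 0.0116) and -0.62 ± 0.15 in wt cells (adjusted p = 0.0139), which left 60.5, 66.7 and 65.1% of the untreated level. Differences at 24 h were -0.10, 0.11 and 0.09 in homozygous, heterozygous and wt cells, none called.

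The second measured Tgfbr2 probe set, 1425444_a_at, correlated with the first at r = 0.92 over 18 arrays. It was at 7.21 and 7.65 in untreated homozygous cells, 5.05 and 5.72 at 4 h and 7.08 and 7.19 at 24 h. Its fall at 4 h was -2.05 ± 0.41 in homozygous (limma, adjusted p = 0.00258) and -1.26 ± 0.41 in heterozygous cells (adjusted p = 0.0387), and in wt cells its difference was -1.14 ± 0.41 (adjusted p = 0.0723). Both homozygous calls for Tgfbr2 held whichever of the 18 arrays was left out. The wt call for 1426397_at was lost without the second 4 h array (-0.57, adjusted p = 0.0831) or the first untreated array (-0.55, adjusted p = 0.0867) of wt. The heterozygous call for it was lost without the second untreated array (adjusted p = 0.0541), the second 4 h array (0.0642) or the first untreated array (0.0666) of that genotype. The heterozygous call for 1425444_a_at was lost without either homozygous array at 24 h (0.0523 and 0.0524), the second or first untreated heterozygous array (0.0914 and 0.179) or the first heterozygous array at 4 h, where the difference was -0.76 (adjusted p = 0.287).

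By group mean, 1426397_at was highest in untreated homozygous cells at 11.97 ± 0.17 and then in heterozygous and homozygous cells at 24 h, whose arrays overlapped (SD, n = 2 each). Untreated heterozygous cells at 11.79 ± 0.03, wt cells at 24 h at 11.56 ± 0.08 and untreated wt cells at 11.48 ± 0.10 followed. The 4 h groups were last, at 11.24 ± 0.21 in homozygous, 11.21 ± 0.07 in heterozygous and 10.86 ± 0.07 in wt cells.

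**Figure D3:**
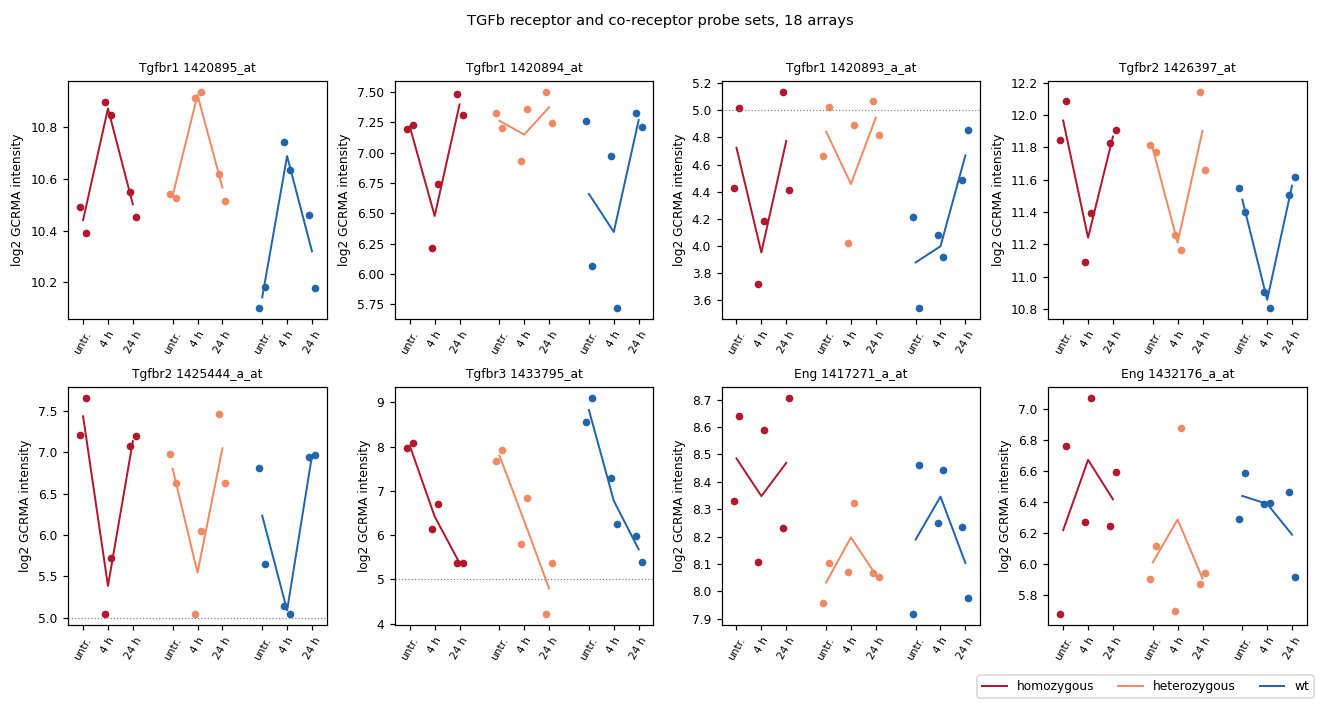
Log2 GCRMA intensity of the 8 probe sets of Tgfbr1, Tgfbr2, Tgfbr3 and Eng that passed the filter, for homozygous, heterozygous and wt cells untreated and after 4 h and 24 h of TGFb. Dots are arrays, lines join group means and the dotted line marks log2 5. Tgfbr2 dips at 4 h and returns at 24 h in each genotype, whereas Tgfbr3 lies lower again at 24 h.

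Tgfbr3 encodes betaglycan, the co-receptor that hands ligand to TGFBR2, and had the widest range of the 15 probe sets, 4.89 over the 18 arrays. Its probe set 1433795_at was at 7.96 and 8.08 in untreated homozygous cells, 6.13 and 6.71 after 4 h and 5.37 and 5.36 after 24 h. Its level in heterozygous cells was 7.69 and 7.92 untreated, 5.81 and 6.83 after 4 h and 4.21 and 5.37 after 24 h. Its level in wt cells was 8.56 and 9.10 untreated, 7.29 and 6.26 after 4 h and 5.97 and 5.38 after 24 h. All 12 treated arrays lay below all 6 untreated ones, and 1 of them, a heterozygous array at 24 h, lay under log2 5, so its size is uncertain. The fall at 4 h was -1.60 ± 0.44 in homozygous (limma, adjusted p = 0.0142), -1.49 ± 0.44 in heterozygous (adjusted p = 0.0260) and -2.05 ± 0.44 in wt cells (adjusted p = 0.00878), to 33, 35.7 and 24.1% of the untreated level. At 24 h it was -2.65 ± 0.44 in homozygous (adjusted p = 0.00304), -3.01 ± 0.44 in heterozygous (adjusted p = 0.00157) and -3.15 ± 0.44 in wt cells (adjusted p = 0.000875), to 15.9, 12.4 and 11.3%.

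Tgfbr3 supplied the single call among the 15 probe sets in each genotype at 24 h, against 6.44% of all probe sets called in homozygous, 5.07% in heterozygous and 9.14% in wt cells, and 4.18, 2.84 and 5.03% called lower. No call for it at 24 h was lost when any 1 array was left out, and the differences ran from -2.71 to -2.59 in homozygous, -3.59 to -2.43 in heterozygous and -3.45 to -2.86 in wt cells. The wt call at 24 h was lost when only the groups compared were fitted (adjusted p = 0.0937). At 4 h the homozygous call was lost without the first untreated (adjusted p = 0.0576), the second untreated (0.0750) or the first 4 h array (-1.31, 0.113) of that genotype. The heterozygous call at 4 h was lost without the first untreated (0.0777), the second untreated (0.131) or the first 4 h array (-0.97, 0.208), and the wt call without the second wt array at 4 h (-1.54, 0.0887). Of the 8 neighbouring pairs of group means, ordered from 8.83 ± 0.38 in untreated wt cells to 4.79 ± 0.82 in heterozygous cells at 24 h (SD, n = 2 each), 4 had arrays that did not overlap.

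Eng, the gene of endoglin, showed no call in any treatment comparison. Probe set 1417271_a_at was at 8.33 and 8.64 in untreated homozygous cells, 8.11 and 8.59 after 4 h and 8.23 and 8.71 after 24 h. It was at 7.96 and 8.11, 8.07 and 8.32, and 8.07 and 8.05 in heterozygous cells, and at 7.92 and 8.46, 8.25 and 8.44, and 8.23 and 7.97 in wt cells, in the same order of times. Treated and untreated arrays overlapped in each genotype, and 0 of the 8 neighbouring pairs of group means were separate. The 95% interval of the 4 h difference was -0.62 to 0.34 in homozygous, -0.32 to 0.65 in heterozygous and -0.33 to 0.64 in wt cells. With 2 arrays a group, changes of any size within these bounds are not excluded. Its dimmer probe set 1432176_a_at gave 0.45, 0.28 and -0.05 in the 3 genotypes at 4 h, none called, and correlated with the first at r = 0.70. Of 10 endothelial markers 2 lay above log2 5, Flt1 at 8.70 to 10.51 and Emcn at 8.24 to 9.67, while Pecam1, Cdh5, Kdr, Tek, Tie1, Esam, Cldn5 and Vwf lay below it in all 18 arrays.

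Smad2 and Smad3 encode the transcription factors that TGFBR1 phosphorylates. At 4 h Smad3 was called lower and no Smad2 probe set was called, and the difference between the 2 genes was not tested. Smad3 probe set 1454960_at was at 9.68 and 9.48 in untreated homozygous cells, 9.10 and 8.98 after 4 h and 9.32 and 9.46 after 24 h. Its level in heterozygous cells was 9.59 and 9.54 untreated, 9.16 and 9.22 after 4 h and 9.52 and 9.50 after 24 h. Its level in wt cells was 9.59 and 9.74 untreated, 9.35 and 9.13 after 4 h and 9.49 and 9.59 after 24 h. The 4 h arrays, at 8.98 to 9.35, lay below the untreated ones, at 9.48 to 9.74. Smad3 fell by 0.54 ± 0.11 on the log2 scale in homozygous (limma, adjusted p = 0.00306), 0.38 ± 0.11 in heterozygous (adjusted p = 0.0263) and 0.42 ± 0.11 in wt cells (adjusted p = 0.0240), to 68.6, 77 and 74.7% of the untreated level. Differences at 24 h were -0.19, -0.06 and -0.13 in homozygous, heterozygous and wt cells, none called.

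Probe set 1450472_s_at of Smad3 was at 7.37 and 7.58 in untreated homozygous cells, 5.93 and 6.61 at 4 h and 7.69 and 7.35 at 24 h, and correlated with 1454960_at at r = 0.62. Its fall at 4 h was -1.20 ± 0.38 in homozygous (limma, adjusted p = 0.0274) and -1.36 ± 0.38 in heterozygous cells (adjusted p = 0.0194), and its difference was -0.85 ± 0.38 in wt cells (adjusted p = 0.138). The homozygous call for 1454960_at held whichever array was left out. The wt call for it was lost without the second untreated (-0.35, adjusted p = 0.0738) or the second 4 h array (-0.31, adjusted p = 0.160) of wt, and the heterozygous call without any 1 of its 4 arrays (adjusted p of 0.0646 to 0.119). For 1450472_s_at the heterozygous call was lost without any 1 of its 4 arrays (0.0551 to 0.115), and the homozygous call without either untreated array (0.0769 and 0.131) or the first 4 h array (-0.86, 0.206).

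Smad2, by its probe set 1420634_a_at, spanned 0.39 over the 18 arrays, from 9.91 to 10.30. Its 4 h difference was -0.02 ± 0.12 in homozygous, 0.10 ± 0.12 in heterozygous and 0.04 ± 0.12 in wt cells, with adjusted p of 0.914, 0.566 and 0.839. The 95% interval ran from -0.28 to 0.23 in homozygous, -0.15 to 0.35 in heterozygous and -0.21 to 0.30 in wt cells. At 24 h it was -0.14, -0.01 and -0.02, none called. The dimmer Smad2 probe set, 1442062_at, lay at 5.18 to 6.76 and gave -0.53, 0.03 and -0.27 at 4 h, none called.

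**Figure D4:**
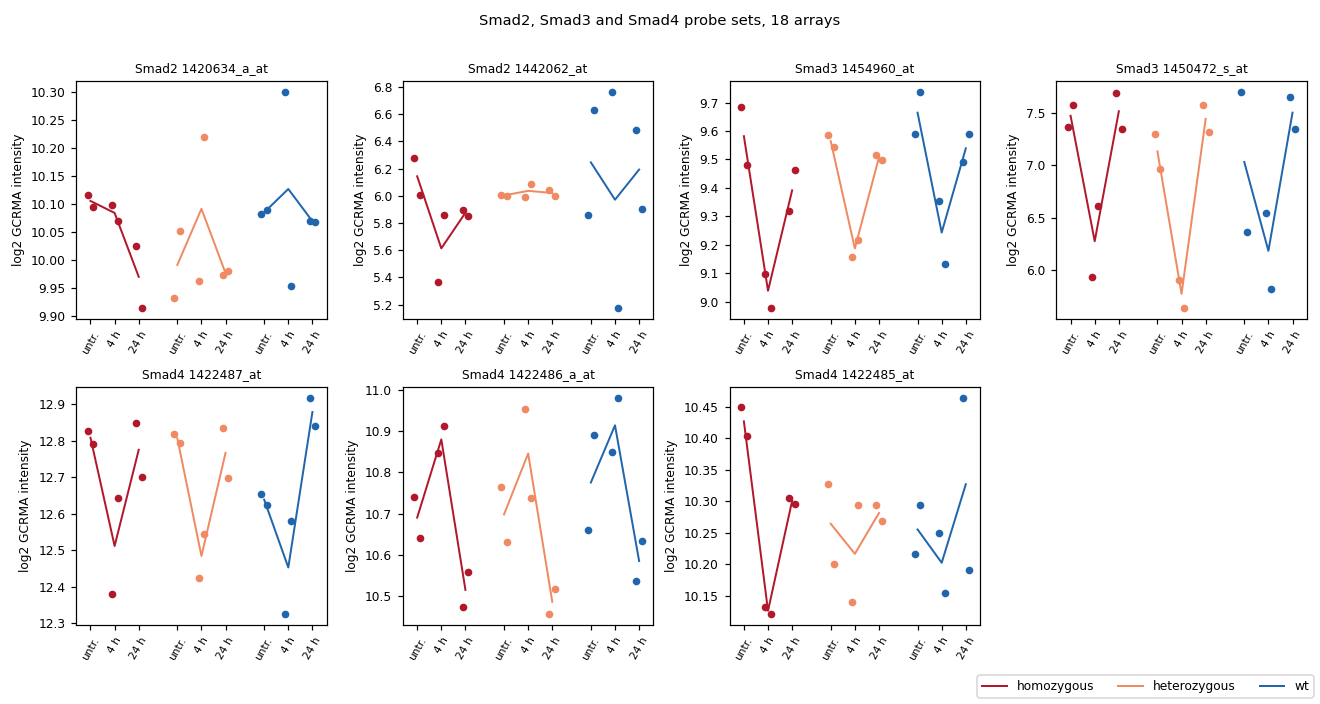
Log2 GCRMA intensity of the 7 probe sets of Smad2, Smad3 and Smad4 that passed the filter, for homozygous, heterozygous and wt cells untreated and after 4 h and 24 h of TGFb. Dots are arrays and lines join group means. Smad3 lies lower at 4 h in each genotype, Smad2 1420634_a_at stays within 9.91 to 10.30, and Smad4 probe sets move in different directions.

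Smad4 encodes the partner shared by all receptor-activated Smads, and its 3 probe sets did not move together. Probe set 1422487_at was at 12.83 and 12.79 in untreated homozygous cells, 12.38 and 12.64 after 4 h and 12.85 and 12.70 after 24 h. In heterozygous cells it was at 12.82 and 12.79 untreated, 12.42 and 12.55 after 4 h and 12.83 and 12.70 after 24 h. In wt cells it was at 12.65 and 12.62, then 12.32 and 12.58, then 12.92 and 12.84. It fell at 4 h by 0.30 ± 0.10 on the log2 scale in homozygous (limma, adjusted p = 0.0387) and 0.32 ± 0.10 in heterozygous cells (adjusted p = 0.0342), and its difference in wt cells was -0.19 ± 0.10 (adjusted p = 0.222). Probe set 1422486_a_at gave 0.19 ± 0.11 in homozygous, 0.15 ± 0.11 in heterozygous and 0.14 ± 0.11 in wt cells, with adjusted p of 0.184, 0.326 and 0.388. Probe set 1422485_at was called lower in homozygous cells at -0.30 (adjusted p = 0.0355) and gave -0.05 in both other genotypes.

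The Smad4 calls at 4 h lay near the threshold (limma, adjusted p of 0.0342 to 0.0387), and each was lost without any of several arrays. In homozygous cells the call for 1422487_at was lost without either untreated heterozygous array (adjusted p = 0.0521), either untreated homozygous array (0.112 and 0.153) or the first homozygous array at 4 h (-0.17, 0.328). In heterozygous cells it was lost without any 1 of its 4 arrays (0.0547 to 0.183). The call for 1422485_at was lost without any 1 of the 6 homozygous arrays (0.0505 to 0.155). The call for 1422487_at held in 9 of 14 alternative settings in homozygous and 10 of 14 in heterozygous cells. With a replicate block within genotype it was lost in homozygous (adjusted p = 0.0662) and heterozygous cells (adjusted p = 0.0602), as was the homozygous call for 1422485_at (adjusted p = 0.0519). With the untreated wt replicate numbers crossed, a setting chosen after seeing the data, these calls held (limma, adjusted p = 0.0459, 0.0401 and 0.0241). Over 18 arrays 1422487_at correlated with 1422486_a_at at r = -0.69 and with 1422485_at at r = 0.59, and 1422486_a_at with 1422485_at at r = -0.50.

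Within an array, 1422487_at lay above 1422486_a_at by 2.09 and 2.15 in untreated homozygous cells, 1.53 and 1.73 at 4 h and 2.38 and 2.14 at 24 h. The gap was 2.05 and 2.16, 1.47 and 1.81, and 2.38 and 2.18 in heterozygous cells, and 1.99 and 1.73, 1.48 and 1.60, and 2.38 and 2.21 in wt cells, at the same times. At 4 h it was smaller than in untreated cells of the same genotype in all 6 arrays, without overlap. The mean change was -0.43 at 4 h, again a description of a pair chosen after its values were seen. At 24 h the mean change was 0.25, from 0.14 in homozygous, 0.17 in heterozygous and 0.43 in wt cells.

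Measures of RNA integrity moved with time in the same arrays, not all in the same direction. The 3′ minus 5′ log2 difference of the Gapdh control probe sets was -0.44 to -0.33 in untreated arrays, -0.52 to -0.43 at 4 h and -0.41 to -0.34 at 24 h. For actin it was 0.28 to 0.33 untreated, 0.22 to 0.28 at 4 h and 0.28 to 0.38 at 24 h. For the transferrin receptor it was 1.08 to 2.16 untreated, 1.32 to 1.86 at 4 h and 0.93 to 1.43 at 24 h. Its highest value, 2.16, was in the second untreated wt array. In mutant cells it was 1.08 to 1.25 untreated, below all mutant arrays at 4 h. Over 18 arrays the Gapdh difference correlated with Smad4 1422487_at at r = 0.76, with Smad3 1450472_s_at at r = 0.73 and with Tgfbr2 1426397_at at r = 0.67, as a description of arrays that also share treatment. It correlated with Smad3 1454960_at at r = 0.65, Tgfbr1 1420895_at at -0.56, Smad2 1420634_a_at at -0.51, Eng 1417271_a_at at -0.14 and Tgfbr3 1433795_at at -0.08. Its part in the 4 h results was not tested. The dimmer probe sets 1420894_at of Tgfbr1, 1425444_a_at of Tgfbr2 and 1450472_s_at of Smad3 correlated with each other at r = 0.68 to 0.88. In this order they were at 6.06, 5.65 and 6.36 in the second untreated wt array, against 7.26, 6.81 and 7.71 in the first. At 4 h the second wt array was at 5.72, 5.04 and 5.81, against 6.97, 5.14 and 6.55. Mutant arrays at 4 h were as low for 1425444_a_at, at 5.04 in a heterozygous array, and for 1450472_s_at, at 5.64 in another.

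Between 4 h and 24 h the early changes of Tgfbr1, Tgfbr2 and Smad3 turned back, and Tgfbr3 did not. Of the 15 probe sets, 4 were called higher and 2 lower at 24 h than at 4 h in homozygous cells, 4 and 3 in heterozygous and 4 and 2 in wt cells, while 33.3, 29.1 and 32.5% of all probe sets were called. By direction, 14.4, 14.1 and 16.7% of all probe sets were called higher and 18.9, 15 and 15.7% lower in homozygous, heterozygous and wt cells. The arrays of the 2 times did not overlap for 12 of the 15 in homozygous, 9 in heterozygous and 11 in wt cells, against 77.6, 69.3 and 62.1% of all probe sets. These comparisons share the 4 h arrays with those above, so their opposite sign is not separate evidence.

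Tgfbr2 1426397_at was higher at 24 h than at 4 h by 0.63 in homozygous (limma, adjusted p = 0.00657), 0.69 in heterozygous (adjusted p = 0.00441) and 0.71 in wt cells (adjusted p = 0.00392). Its second probe set rose by 1.75 (adjusted p = 0.00673), 1.50 (0.0163) and 1.87 (0.00541) in the same genotypes. Both wt calls held whichever array was left out. For 1426397_at the homozygous call was lost without the second 24 h array (0.59, adjusted p = 0.0504) or the first 4 h array (0.48, 0.0760), and the heterozygous call without its first 24 h array (0.45, 0.0502). For 1425444_a_at the homozygous call was lost without the first 4 h array (1.41, 0.0707) and the heterozygous call without its first 24 h array (1.08, 0.143) or first 4 h array (adjusted p = 0.148).

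Tgfbr1 1420895_at was lower at 24 h than at 4 h by -0.37 in homozygous (limma, adjusted p = 0.0132), -0.36 in heterozygous (adjusted p = 0.0174) and -0.37 in wt cells (adjusted p = 0.0141). The homozygous call was lost without the first 4 h array (-0.35, 0.0821) or the second 24 h array (-0.32, 0.0959), and the wt call without the second wt array at 24 h (-0.23, 0.145). The heterozygous call was lost without either 4 h array (-0.37, 0.0599 and -0.34, 0.0737) or the second 24 h array (-0.30, 0.116). Tgfbr3 was called lower again in heterozygous cells at -1.53 (adjusted p = 0.0212), not without the second 4 h (-1.01, 0.172) or first 24 h array (-0.95, 0.198). Its differences of -1.05 in homozygous (adjusted p = 0.0832) and -1.10 in wt cells (adjusted p = 0.0732) were not called.

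Smad3 1450472_s_at rose between 4 h and 24 h by 1.24 in homozygous (limma, adjusted p = 0.0246), 1.68 in heterozygous (adjusted p = 0.00659) and 1.32 in wt cells (adjusted p = 0.0194). Smad3 1454960_at rose by 0.35 in homozygous (adjusted p = 0.0290) and 0.32 in heterozygous cells (adjusted p = 0.0480) and gave 0.30 in wt cells (adjusted p = 0.0593). The 1450472_s_at call was lost in homozygous cells without the first 4 h array or either 24 h array (adjusted p of 0.0619 to 0.191), in heterozygous cells without the first 24 h array (0.0510) and in wt cells without the second 4 h array or either 24 h array (0.0527 to 0.157). The 1454960_at call was lost in homozygous cells without any 1 of the 4 arrays compared (0.0564 to 0.182) and in heterozygous cells without any of 14 of the 18 arrays (0.0533 to 0.175).

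For Smad4, 1422486_a_at was lower at 24 h than at 4 h by -0.37 in homozygous (limma, adjusted p = 0.0195), -0.36 in heterozygous (adjusted p = 0.0234) and -0.33 in wt cells (adjusted p = 0.0314). Probe set 1422487_at rose by 0.43 in wt cells (adjusted p = 0.00829) and gave 0.26 in homozygous (adjusted p = 0.0632) and 0.28 in heterozygous cells (adjusted p = 0.0535). The 1422487_at call was lost without the first wt array at 24 h (0.39, 0.0507). The 1422486_a_at call was lost in homozygous cells without any 1 of the 4 arrays compared (0.0580 to 0.116), in heterozygous cells without the first 4 h array or either 24 h array (0.0714 to 0.175) and in wt cells without the second 4 h array or either 24 h array (0.0695 to 0.162).

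In untreated cells no probe set of these 7 genes was called between genotypes. Over all probe sets 0.744% were called between homozygous and wt cells, 0.586% between heterozygous and wt cells and 0 between homozygous and heterozygous cells. At an unadjusted p under 0.05, 4 of the 15 were higher and 0 lower in homozygous than in wt cells, where 8.82% of all probe sets were higher and 7.79% lower at that p. In heterozygous against wt cells 3 were higher and 1 lower, against 4.85 and 4.17% of all probe sets, and between the mutants 0 passed, against 3.11%. Tgfbr1 1420895_at differed by 0.30 ± 0.10 between homozygous and wt cells (limma, adjusted p = 0.156) and by 0.39 ± 0.10 between heterozygous and wt cells (adjusted p = 0.141). Both 95% intervals, 0.09 to 0.51 and 0.18 to 0.61, lay above 0 before adjustment, and all 4 untreated mutant arrays lay above the wt pair. Tgfbr2 1426397_at differed by 0.49 ± 0.15 between homozygous and wt cells (adjusted p = 0.120) and by 0.32 between heterozygous and wt cells (adjusted p = 0.552), again with no overlap.

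Tgfbr3 differed the other way, by -0.81 ± 0.44 in homozygous (limma, adjusted p = 0.384) and -1.03 ± 0.44 in heterozygous cells (adjusted p = 0.517), both against wt. Smad2 1420634_a_at gave 0.02 in homozygous against wt cells, with a 95% interval of -0.23 to 0.27, and Smad3 1454960_at gave -0.08. The arrays of the 2 genotypes did not overlap for 8 of the 15 probe sets in each of the 3 comparisons, against 46.7% of all probe sets between homozygous and wt, 34.4% between heterozygous and wt and 43.4% between homozygous and heterozygous cells. Macrophage and blood markers also differed between mutant and wt arrays, as given above. The summed level of 6 skeletal muscle markers was 10.48 to 10.67 in homozygous, 10.73 to 11.03 in heterozygous and 11.55 to 11.77 in wt untreated arrays, without overlap, with Myod1 and Ckm below log2 5 in all 18 arrays. The part of either list in these differences was not tested.

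No difference between genotypes in the response to TGFb was called. In the 4 comparisons of a mutant response with the wt response, 0 of the 15 probe sets were called, 0 passed an unadjusted p under 0.05, and 0% of all probe sets were called. At that unadjusted p 8% of all probe sets passed at 4 h and 6.15% at 24 h for homozygous cells, and 3.61 and 3.5% for heterozygous cells. At 4 h the homozygous minus wt response was -0.12 for Tgfbr1 1420895_at, with a 95% interval of -0.42 to 0.19, and -0.10 for Tgfbr2 1426397_at, with an interval of -0.55 to 0.34. For Smad3 1454960_at it was -0.12 (-0.46 to 0.22) and for Tgfbr3 0.45 (-0.89 to 1.80). The heterozygous minus wt response at 4 h was -0.16 (-0.46 to 0.14) for Tgfbr1, 0.04 (-0.41 to 0.48) for Tgfbr2, 0.04 (-0.30 to 0.39) for Smad3 and 0.57 (-0.78 to 1.92) for Tgfbr3. At 24 h the homozygous minus wt response of Tgfbr3 was 0.50 (-0.85 to 1.85). Intervals of this width hold responses of equal size and, for each of these genes, also of clearly unequal size.

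Other genes of the pathway were counted from lists drawn up with the members, by the brightest probe set of each gene, with the same adjustment over all 18958 probe sets. Of the 3 TGFb ligands, all measured, Tgfb1 alone rose at 4 h, by 1.18 ± 0.10 in homozygous (limma, adjusted p = 1.3e-05), 1.39 ± 0.10 in heterozygous (adjusted p = 6.14e-06) and 1.35 ± 0.10 in wt cells (adjusted p = 1.02e-05). It was still higher at 24 h, by 1.13, 1.23 and 1.13, and each of these calls held whichever array was left out. Of the genes tested, 19.7% were called higher at 4 h in homozygous, 15.2% in heterozygous and 8.68% in wt cells, and 17, 12.8 and 10.5% lower. In wt cells at 24 h Tgfb2 was called as well, at 0.37 (adjusted p = 0.0461), and that call was lost without any of 15 of the 18 arrays. Untreated homozygous cells had more Tgfb1 RNA than untreated wt cells, by 0.64 (adjusted p = 0.0179), where 0.655% of genes were called higher, a call lost without either untreated homozygous array (adjusted p of 0.175 and 0.185). Tgfb2 was called higher there too, at 0.55 (adjusted p = 0.0368), and that call was lost without any of 13 of the 18 arrays.

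Among other receptors of the superfamily 6 of 10 were measured. At 4 h 2 were called higher and 1 lower in homozygous cells, 2 and 1 in heterozygous cells and 2 and 0 in wt cells, and at 24 h 1, 2 and 3 were called higher and 0 lower. The median change of the 6 at 4 h was -0.10, 0.05 and -0.08 in homozygous, heterozygous and wt cells, against 0.03, 0.02 and -0.03 over all genes. Acvr1, a type I receptor for BMPs and activins, rose at 4 h by 0.54 in homozygous (limma, adjusted p = 0.000188), 0.51 in heterozygous (adjusted p = 0.00036) and 0.58 in wt cells (adjusted p = 0.00027), and at 24 h by 0.66, 0.60 and 0.81. Bmpr1b, a type I BMP receptor, rose at 4 h by 0.97 (adjusted p = 0.00541), 1.33 (0.00126) and 1.14 (0.00519) in the same genotypes. Acvr2a, a type II activin receptor, was the one called lower, at -0.57 in homozygous (adjusted p = 0.0136) and -0.48 in heterozygous cells (adjusted p = 0.0405). Its call was lost in homozygous cells without either untreated array or the first 4 h array (0.0504 to 0.0842) and in heterozygous cells without any of 8 of the 18 arrays (0.0514 to 0.271). These calls for Acvr1 at both times and Bmpr1b at 4 h held whichever array was left out.

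Among the other Smads 4 of 5 were measured. Smad7, the inhibitory Smad that blocks TGFBR1, rose at 4 h by 0.86 in homozygous (limma, adjusted p = 0.00890) and 0.87 in wt cells (adjusted p = 0.0179) and gave 0.37 in heterozygous cells (adjusted p = 0.223). The homozygous call was lost without the second untreated (0.81, adjusted p = 0.0590) or first 4 h array (0.75, 0.0763), and the wt call without the second untreated (0.76, 0.0582) or second 4 h array (0.41, 0.0936). Smad6, which inhibits mainly BMP signals, fell in heterozygous cells by 1.02 (adjusted p = 0.0292), a call lost without any 1 of the 4 arrays compared (0.0839 to 0.141).

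Regulators of receptors and Smads were measured for 26 of 27 genes. At 4 h 6 were called higher and 6 lower in homozygous cells, 5 and 2 in heterozygous and 5 and 2 in wt cells, and at 24 h 2 and 2, 2 and 2, and 5 and 2. Their median change at 4 h was -0.07 in homozygous, -0.07 in heterozygous and -0.03 in wt cells. Over all genes tested 2.81% were called higher at 24 h in homozygous, 2.68% in heterozygous and 4.08% in wt cells, and 4.98, 3.67 and 6.35% lower. Pmepa1, an induced inhibitor that binds receptor-regulated Smads, rose at 4 h by 0.38 (limma, adjusted p = 0.00423), 0.51 (0.00108) and 0.79 (0.000107) in homozygous, heterozygous and wt cells, and at 24 h by 0.68, 0.81 and 1.05. Tgif1, a Smad co-repressor, rose at 4 h by 0.87, 0.78 and 0.83, and Ldlrad4, which keeps receptor-regulated Smads from the receptor, by 0.96, 1.24 and 1.19 in the same genotypes. Dab2, an adaptor that links TGFb receptors to Smads, fell at 4 h by 1.16, 0.95 and 1.20 on the log2 scale.

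At 24 h Skil, a nuclear Smad repressor, rose by 0.62 in homozygous (limma, adjusted p = 0.00127), 0.59 in heterozygous (adjusted p = 0.00205) and 0.95 in wt cells (adjusted p = 6.44e-05). Cav1, the main protein of caveolae, through which TGFb receptors are taken up, fell by 1.23 (adjusted p = 2.63e-05), 1.50 (3.35e-06) and 1.32 (1.01e-05) on the log2 scale. All the 4 h calls just given for Pmepa1, Tgif1, Ldlrad4 and Dab2, and the 24 h calls for Pmepa1, Skil and Cav1, held whichever array was left out. In wt cells all 11 genes of the 4 lists called at 4 h and all 12 called at 24 h were lost when only the 4 arrays compared were fitted, with adjusted p of 0.144 to 0.463 and 0.0749 to 0.341. With array weights the wt calls at 4 h were lost for 7 of these 11, and those for Acvr1, Pmepa1, Tgfb1 and Tgif1 were kept. At 24 h array weights lost 7 of the 12 (limma, adjusted p of 0.0543 to 0.202) and kept Acvr1, Cav1, Pmepa1, Skil and Tgfb1.

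Among untreated cells 2 regulators were called in each mutant, while 0.655% of genes were called higher and 0.258% lower in homozygous, and 0.635 and 0.119% in heterozygous, against wt cells. Cav1 was lower than in wt cells by -0.71 in homozygous (limma, adjusted p = 0.00756) and -0.72 in heterozygous cells (adjusted p = 0.00367). Pmepa1 was higher by 0.51 in homozygous cells (adjusted p = 0.0182), and Skil by 0.46 in heterozygous cells (adjusted p = 0.0411). The homozygous calls were lost without either untreated homozygous array, the Cav1 call in heterozygous cells without the first untreated heterozygous array, and the Skil call without any of 15 of the 18 arrays. No other receptor or Smad of the lists was called between untreated genotypes.

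**Figure D5:**
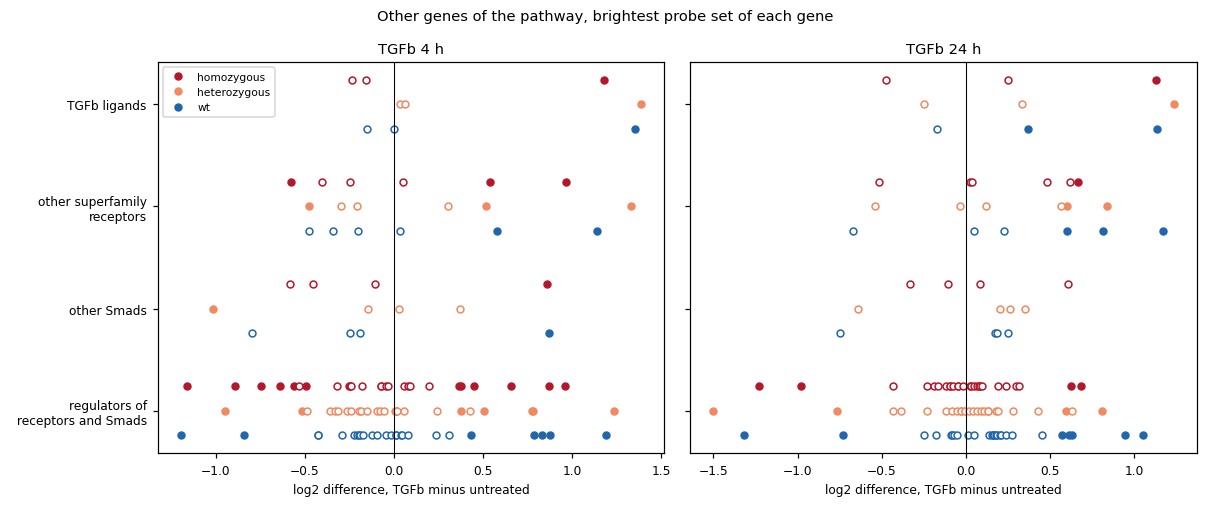
Log2 difference between TGFb-treated and untreated cells at 4 h (left) and 24 h (right) for the other ligands, receptors, Smads and regulators, with 1 point a gene and genotype. Filled points had an adjusted p under 0.05 and open points did not. At 4 h filled points lie on both sides of 0, and in homozygous cells 6 regulators lie on each side.

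Levels of the 7 genes were also related to each other and to the rest of the array over the 9 group means. Over the 18 arrays the brightest probe sets of Tgfbr1 and Smad3 correlated at r = -0.81, Tgfbr2 and Smad4 at r = 0.78 and Tgfbr2 and Smad3 at r = 0.58, on arrays that share treatment and genotype. Of 2454 other genes whose group means spanned at least 1 log2 unit, those most like Tgfbr1 were Gch1 at r = 0.986, Krt18 at 0.956 and Ccl20 at 0.954. Most like Tgfbr2 were Dact1 at 0.994, Trib3 at 0.990 and Gata6 at 0.989, and most like Tgfbr3 were Cavin2 at 0.982, Ccn5 at 0.981 and Trib2 at 0.977. For Smad3 they were Fbxo21 at 0.992, Gli2 at 0.987 and Inpp5e at 0.987, and for Smad4 Gatad2b at 0.978, Tex9 at 0.977 and Smc6 at 0.972. Eng and Smad2, which varied little between groups, reached 0.823 with Hoxb5os and 0.895 with Fez1. With 9 points and this many candidates, high values of r are found for many genes, and they are given as a description.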

How the data were processed

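RNA of mouse embryonic fibroblasts was labelled after a single amplification and hybridised to 18 Affymetrix mouse arrays, per the labels' protocols. The deposited values are linear intensity values that the authors made with GCRMA, per the submitters' processing notes, with no version given there, and GCRMA corrects background, normalizes between arrays and summarizes probes, so that low values are compressed toward a floor. The sources used here give no scan dates or batches. All 18 value columns were used.

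The deposited intensities were converted to log2. Probe sets at log2 5 or more in at least 2 arrays were kept, 18958 of 45037, covering 10078 genes. Groups came from the labels. A mean for each of 9 groups was fitted with limma 3.58.1 in R 4.3.3 (eBayes with an intensity trend, 9 residual and a median of 3.51 prior degrees of freedom), and 16 comparisons were tested: 6 responses, 3 of 24 h against 4 h, 3 between untreated genotypes and 4 differences between responses. Tests are two-sided and adjusted by Benjamini-Hochberg over all kept probe sets. The number of arrays limits the precision. The fit was also run on simulated data with independent noise in each array. That run cannot show how the fit fares where replicate differences are shared between groups, as in these arrays.

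Gene symbols are those of the array annotation: 34945 probe sets carry 1 symbol, 932 several and 9160 none, and 0 of those with several name a member. All 7 genes matched the RefSeq table. The members, the pathway and marker lists and the tests were chosen with earlier results of these data known. Every member probe set is named, at most 4 genes of each pathway list and comparison, and the genes most like each member by r over group means. Alternatives were other filters, normalizations, addends, probe-set summaries, variance models, sample sets and replicate blocks, and leaving out each array.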

Additional observations from a re-analysis of the deposited data

How the results depend on the processing

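The number of the 7 genes with at least 1 called probe set was 5, 5 and 4 in homozygous, heterozygous and wt cells at 4 h, 1 in each at 24 h, and 4, 5 and 4 between 24 h and 4 h. With no filter it was 2 for heterozygous cells at 4 h. When the probe sets of each gene were averaged it was 3 for homozygous and 3 for heterozygous cells at 4 h, and 2, 3 and 2 in homozygous, heterozygous and wt cells between the times. Array weights gave 0 in wt cells at 4 h and 0 between the times. Fitting only the groups compared gave 0 in wt cells at 4 h, at 24 h and between the times, and 3 in heterozygous cells between the times, with fewer arrays to estimate the spread. Averaging also reversed Tgfbr1, since it joins probe sets that disagree: at 4 h to -0.36 in homozygous (limma, adjusted p = 0.230) and -0.038 in heterozygous cells (adjusted p = 0.921), and between the times to 0.46 in homozygous (adjusted p = 0.131), 0.12 in heterozygous (adjusted p = 0.720) and 0.41 in wt cells (adjusted p = 0.179). Leaving out 1 array at a time gave 2 to 5 genes in homozygous, 0 to 5 in heterozygous and 1 to 5 in wt cells at 4 h, 1 to 1, 1 to 1 and 1 to 2 at 24 h, and 0 to 4, 1 to 5 and 2 to 5 between the times. The 0 at 4 h came without either untreated heterozygous array, the 2 without the second untreated homozygous array and the 1 without the second wt array at 4 h. The 0 between the times came without the first homozygous array at 4 h and the 1 without the first heterozygous array at 24 h. For homozygous against wt untreated cells it gave 0 to 1, and 0 for the other genotype comparisons and all differences between responses. Of 535 values of single called probe sets under other settings, 475 kept direction and call, 55 kept direction only and 5 reversed, and of 738 with an array left out 639, 99 and 0 did so. With the replicate number as a block over all groups the counts at 4 h were 5, 5 and 4, at 24 h 1 each and between the times 4, 5 and 4. With a replicate block within genotype they were 4, 4 and 4 at 4 h, 1 each at 24 h and 5, 5 and 5 between the times. The labels do not say whether the numbers pair the arrays, and the main fit used no pairing. Differences between the replicates of 2 groups of a genotype correlated at 0.54 to 0.61 in homozygous and 0.23 to 0.44 in heterozygous cells. In wt cells they correlated at -0.39 and -0.58 between untreated and treated groups and at 0.51 between the treated ones. Xist, an RNA described below, went with these signs. Its high array was the first at each time in homozygous cells. In wt cells it was the first when untreated and the second when treated, and in heterozygous cells all arrays were high. Of the called member probe sets, the block within genotype lost the Smad4 calls at 4 h (adjusted p of 0.0519 to 0.0662) and those of Smad3 1454960_at between the times (0.0517 in homozygous and 0.0786 in heterozygous cells). All of these held with the untreated wt numbers crossed (0.0241 to 0.0484). A block with the untreated wt numbers crossed, chosen after seeing the data, gave 5, 5 and 4 at 4 h. Without the wt arrays, also chosen after seeing the data, homozygous cells had 6 and heterozygous cells 5 at 4 h. Over all probe sets, calls in wt cells at 4 h numbered 3246, against 2018 with no filter, 239 with array weights and 0 with only the groups compared, and in wt cells at 24 h 1733, against 1142, 464 and 3. At 24 h they numbered 1220 in homozygous cells, against 4434 with array weights and 2916 with only the groups compared, and 962 in heterozygous cells, against 643 with no filter and 2350 with array weights. At 4 h in homozygous cells array weights gave 10707 against 6636. With 2 arrays a group, changes of probe sets near log2 5 are measured least well, and the dimmer probe sets of Tgfbr1, Tgfbr2 and Smad3 had standard errors of 0.38 to 0.41.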

Other observations

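Xist, an RNA made from the inactive X chromosome and so abundant in female cells, differed between the 2 arrays of several groups. In homozygous cells it was at 11.88 and 1.58 untreated, 11.36 and 2.68 at 4 h and 11.34 and 2.21 at 24 h. In heterozygous cells it was at 11.32 to 11.77 in all 6 arrays. In wt cells it was at 11.64 and 1.58 untreated, 1.60 and 11.27 at 4 h and 1.61 and 11.50 at 24 h, so the high array was the first when untreated and the second when treated. The labels do not give the sex of the embryos, and within a group it cannot be told apart from other differences between its 2 arrays. The pairs that follow are untreated, at 4 h and at 24 h, each with the array high in Xist first. Tgfbr3 1433795_at was at 7.96 and 8.08, 6.13 and 6.71, and 5.37 and 5.36 in homozygous cells. In wt cells it was at 8.56 and 9.10, 6.26 and 7.29, and 5.38 and 5.97. Eng 1417271_a_at was at 8.33 and 8.64, 8.11 and 8.59, and 8.23 and 8.71 in homozygous cells. In wt cells it was at 7.92 and 8.46, 8.44 and 8.25, and 7.97 and 8.23. Tgfbr1 1420895_at was at 10.49 and 10.39, 10.90 and 10.85, and 10.55 and 10.45 in homozygous cells. In wt cells it was at 10.10 and 10.18, 10.64 and 10.74, and 10.18 and 10.46.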
